A study of Homo sapiens with 80 samples.

Results

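The genes described here are 10 transcripts of the stress programmes that start from the factor ATF4 and from the endoplasmic reticulum: CHAC1, DDIT3, ATF4, ASNS, TRIB3, SESN2, DDIT4, HSPA5, XBP1 and PPP1R15A. They are the rows of the count table whose Ensembl gene IDs map to these symbols, 10 of 60663 genes, and all 10 were found. They were chosen by name with earlier results of these data known, and which measured values were looked at in drawing up the list is not recorded. Every contrast of a treated group with its own control is therefore given as a description, in which "passed" means an adjusted p under 0.05 over all genes tested, and nothing is read from how many members passed.

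RNA was sequenced from Jurkat T cells (clone E6-1), an immortalized human T cell leukaemia line, after depletion of ribosomal RNA. In the 9 g time course, cells in pipettes were spun at 9 g for 20 or 75 s (groups hypg20s and hypg75s), for 3, 5, 7 or 9 min (groups hypg3, hypg5, hypg7 and hypg9) or for 15 or 60 min (groups hypg15 and hypg60), with 6 libraries a group. The control of the first 7 groups (Ctrl) was held at 1 g for 15 min and that of hypg60 (Ctrl60) for 60 min. The column names of the count table add HEPES, a buffer, for Ctrl60 alone, and a difference in buffer cannot be told apart from the groups in contrasts with Ctrl60. In the second experiment, 4 libraries a group came from cells lysed without spinning (Ctrl300g), from cells that a centrifuge held at 300 g during 5 min and that were lysed 1 min (wait1min), 4 min (wait4min) or 15 min (wait15min) after it stopped, and from cells held unspun in a water bath at 42 °C (heat). The heating lasted 5 min after about 1 min of warming, under constant rotation. The waiting times are those of the sample titles, while the column names read instant for wait1min and 1min for wait4min. All groups are of 1 cell line. The labels do not say whether the libraries of a group came from separate cultures, so that p-values and errors cover the spread between these libraries, which may be technical.

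Cells sense misfolded protein in the endoplasmic reticulum (ER) and shortage of amino acids through kinases that phosphorylate the translation factor eIF2. General translation then slows, while the mRNA of ATF4 is translated more, so that ATF4 protein can rise without more of its transcript. ATF4 and its partners switch on genes of amino acid supply and redox balance as well as DDIT3, which encodes CHOP, while the ER sensors IRE1 and ATF6 act through XBP1 and the chaperone HSPA5. Splicing of XBP1 mRNA and phosphorylation of eIF2 are not seen in counts per gene.

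Library 75 of hypg15 lacked any count for genes of X, Y, MT and chromosomes 4 to 9, HSPA5 and ASNS among them, and was left out, so that hypg15 has 5 libraries. The other 79 libraries held 22634465 to 41893490 counts. All 8 T cell markers were detected, the summed level of which ran from 2360 to 3951 counts-per-million (CPM). Defining genes of other lineages were at or near 0 (HBB and EPCAM at 0 in 76 and 78 of 79 libraries), other than CD79A, PECAM1 and COL1A1 with medians of 58.8, 209.8 and 6.18 CPM. The share of mitochondrial counts was 1.49% ± 0.10 (SD, n = 6) in Ctrl, 1.62% to 2.29% in the groups spun for up to 15 min and 2.36% ± 0.25 in hypg60 against 1.29% ± 0.10 in Ctrl60. Its part in the results below was not tested. The libraries of hypg3 and hypg15 are numbered 69 to 80 and all other 9 g libraries 1 to 48, and a difference between these runs of numbers and these times cannot be told apart.

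The upstream sequences were read for exact copies of elements known to carry these signals. In the 250 bases before the RefSeq starts (GRCh38.p14), found for 10 of 10 members in 16 windows, 3 motifs were searched on both strands. The C/EBP-ATF element TGATGCAA, which ATF4 binds together with C/EBP proteins, occurred in 0.772% of the 35116 windows of this length. The ER stress response element, CCAAT and CCACG with 9 bases between them, occurred in 0.074% and is the site of ATF6 and XBP1. The cyclic AMP response element TGACGTCA, a site of CREB and ATF proteins, occurred in 1.65%. A match was found in 4 of the 10 members, each in 1 window, and these windows are shown 5′ to 3′ along the gene with the bases of the match in capitals. They lie at chr15:40953221-40953470 (plus strand) for CHAC1, chr9:125241344-125241593 (minus strand) for HSPA5, chr22:28800570-28800819 (minus strand) for XBP1 and chr19:48872171-48872420 (plus strand) for PPP1R15A.
CHAC1: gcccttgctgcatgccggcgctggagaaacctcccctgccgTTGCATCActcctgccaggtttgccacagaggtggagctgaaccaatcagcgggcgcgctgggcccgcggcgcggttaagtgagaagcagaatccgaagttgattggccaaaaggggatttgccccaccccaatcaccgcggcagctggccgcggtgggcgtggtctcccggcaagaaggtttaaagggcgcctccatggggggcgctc
HSPA5: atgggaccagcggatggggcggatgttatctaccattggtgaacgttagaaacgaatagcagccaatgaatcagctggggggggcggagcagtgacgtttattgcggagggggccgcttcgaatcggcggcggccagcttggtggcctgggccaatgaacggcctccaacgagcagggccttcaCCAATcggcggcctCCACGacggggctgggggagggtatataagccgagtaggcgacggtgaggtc
XBP1: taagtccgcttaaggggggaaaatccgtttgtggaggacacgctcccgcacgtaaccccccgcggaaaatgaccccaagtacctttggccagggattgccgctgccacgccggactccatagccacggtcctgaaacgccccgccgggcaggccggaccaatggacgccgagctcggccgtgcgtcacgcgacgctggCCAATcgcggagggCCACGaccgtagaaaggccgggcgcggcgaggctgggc
PPP1R15A: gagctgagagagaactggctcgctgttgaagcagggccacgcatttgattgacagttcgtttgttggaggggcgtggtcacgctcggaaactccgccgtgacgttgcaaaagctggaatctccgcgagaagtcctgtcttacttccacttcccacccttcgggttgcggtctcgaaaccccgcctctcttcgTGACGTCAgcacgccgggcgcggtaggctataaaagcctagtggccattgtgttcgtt
The CHAC1 match is the C/EBP-ATF element read on the opposite strand and starts at position -209 from the RefSeq transcription start, which lies inside the Ensembl span of the gene. HSPA5 and XBP1 hold the ER stress response element at -66 and -52, and PPP1R15A the cyclic AMP response element at -58. The windows of DDIT3, ATF4, ASNS, TRIB3, SESN2 and DDIT4 hold no exact match to these letters. This says nothing of variants of the elements in these windows or of sites elsewhere. Variants were not searched for in any window.

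Before any treatment the members differed widely in level. Divided by all exon bases of the gene, the mean level in Ctrl was 210.5 ± 10.0 CPM per kilobase (SD, n = 6) for ATF4, 57.0 ± 3.12 for HSPA5, the main chaperone of the ER lumen, and 40.5 ± 2.82 for the transcription factor XBP1. It was 18.8 ± 0.496 for DDIT4, 17.9 ± 0.822 for TRIB3, 12.0 ± 0.451 for PPP1R15A and 5.39 ± 0.185 for SESN2. At the low end stood DDIT3 with 2.31 ± 0.329, CHAC1 with 2.02 ± 0.222 and ASNS with 0.0490 ± 0.0155 CPM per kilobase. The differences between the neighbours DDIT4 and TRIB3, and between DDIT3 and CHAC1, were smaller than the sum of their SDs. In Ctrl300g the order was the same except that TRIB3 stood above DDIT4, and CHAC1, with 8.70 ± 0.189 CPM per kilobase (n = 4), stood above SESN2, by less than the sum of their SDs, and above DDIT3.

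ASNS, asparagine synthetase, could be counted only in part. Of its 4896 exon bases (chromosome 7, 97851677 to 97872542, minus strand, GRCh38), 2415 are shared with the gene ENSG00000284707 on the same strand, and read pairs there count for neither. Its median was 12 counts a library, against 30 for ENSG00000284707, and all values of ASNS are of reads on its remaining 2481 bases, over which its level in Ctrl was 0.0968 ± 0.0305 CPM per kilobase. DDIT3 (chromosome 12, 57516588 to 57521737, minus strand) shares 105 of 1307 exon bases with a gene on its own strand that had no counts, and over the remaining 1202 bases its level in Ctrl was 2.51 ± 0.358 CPM per kilobase. The other members share none on their strand. The lowest and median counts a library were 56 and 107 for DDIT3 and 89 and 206 for CHAC1, and at least 352 and 623 for the other members apart from ASNS.

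**Figure D1:**
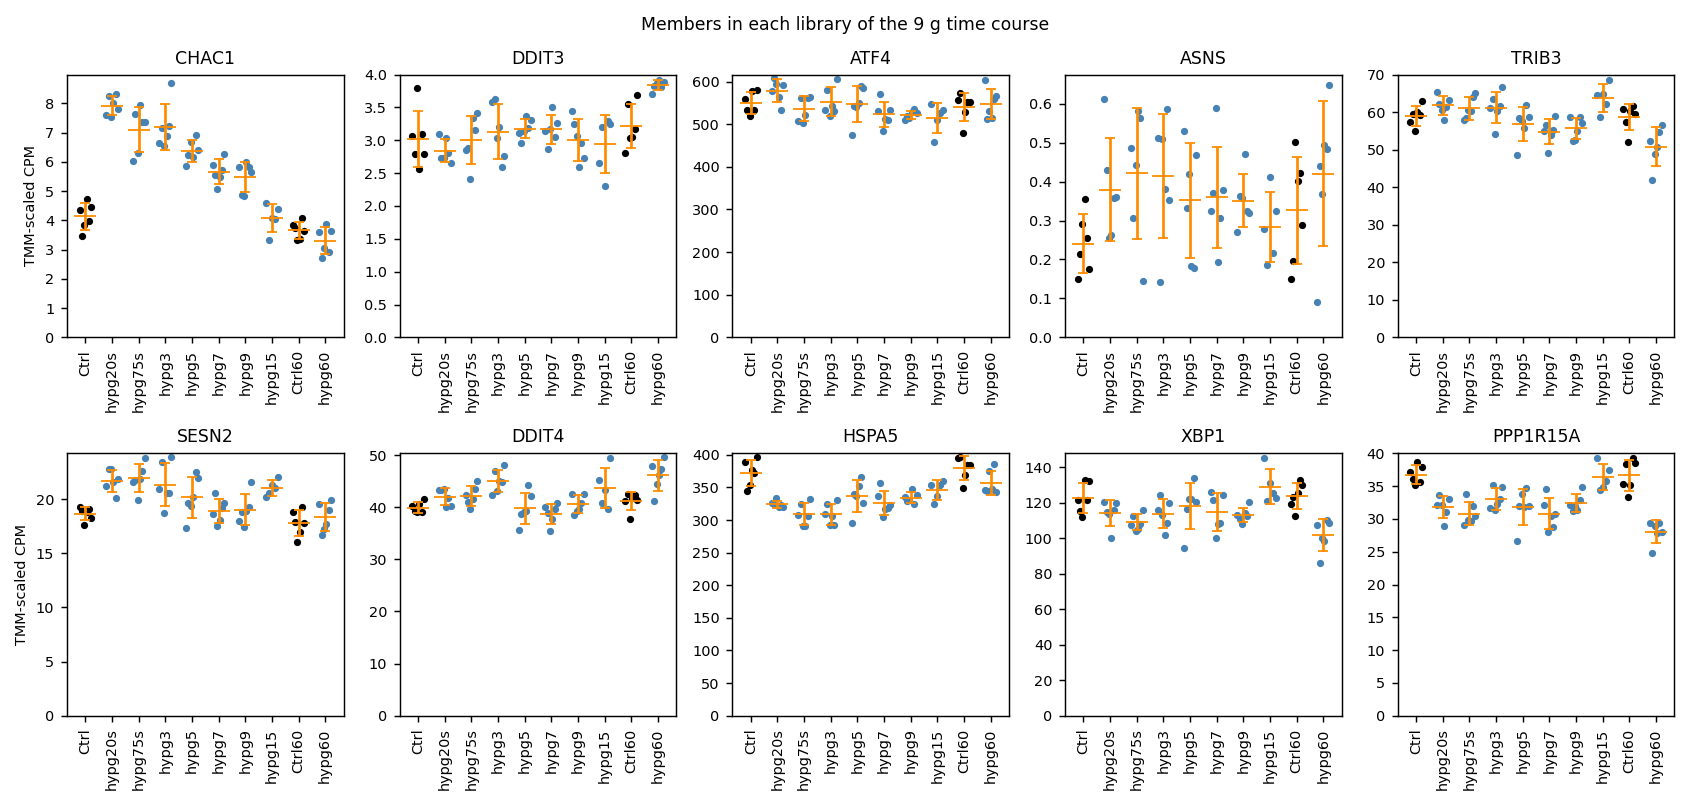
Level of each member in every library of the 9 g time course, in counts-per-million scaled by TMM factors over the 59 libraries (linear axes from 0). Points are libraries (black: 1 g, blue: 9 g), and orange marks the mean and SD of a group; CHAC1 stands above Ctrl at the short times and is back among the control values at 15 min.

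At 9 g, the members moved in both directions and mostly by small amounts, with CHAC1 and the barely counted ASNS as exceptions in size. At hypg20s 2 members were higher and 2 lower than in Ctrl, beside 6.66% and 8.58% of all genes tested. The libraries of the 2 groups did not overlap for 2 higher and 2 lower (4.06% and 1.8% of all genes). At hypg75s 4 members were higher and 3 lower, beside 16.8% and 14.4% of all genes tested, and without overlap were 2 higher and 2 lower (8.06% and 6.88% of all genes). At hypg3 3 were higher and 3 lower, beside 16.9% and 24.4% of all genes tested, and without overlap were 2 higher and 1 lower (8.65% and 12.4% of all genes). CHAC1 and SESN2 were among the higher members at each of these 3 times. At hypg5 CHAC1 alone was higher and none lower, beside 4.33% and 1.69% of all genes tested, and without overlap were 1 higher and 1 lower (3.37% and 1.76% of all genes). At hypg7 1 was higher and 2 were lower, beside 6.64% and 6.19% of all genes tested, and without overlap were 1 higher and 1 lower (3.4% and 2.65% of all genes). At hypg9 1 was again higher and 2 were lower, beside 11.3% and 8.34% of all genes tested, and without overlap were 1 higher and 1 lower (5.42% and 4.1% of all genes). CHAC1 was the higher member at each of these 3 times, and it was not among the higher ones later. At hypg15 1 of 9 members tested, SESN2, was higher and none lower, beside 25.4% and 27.9% of all genes tested, and without overlap were 1 higher and 0 lower (15.0% and 18.0% of all genes). At hypg60 2 were higher and 3 lower than in Ctrl60, beside 17.1% and 13.0% of all genes tested, and without overlap were 1 higher and 2 lower (8.52% and 4.82% of all genes). The median log2 fold change of the members lay between -0.06 and 0.06 at all 8 times, beside medians of all genes between -0.02 and 0.02. The first 7 of these comparisons share the Ctrl libraries. Of the 8 T cell markers, 3 were lower at hypg75s, hypg3, hypg9 and hypg15, with 1 higher at hypg3 and at hypg15. At the other times 0 or 1 were lower and 0 higher, and the part of these markers in the results was not tested.

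CHAC1 (chromosome 15, 40952962 to 40956512, plus strand) encodes an enzyme that breaks down glutathione and is a target of ATF4 and CHOP. Its lowest, median and highest values were 3.47, 4.17 and 4.72 CPM in Ctrl, and 7.54, 7.90 and 8.31 CPM after 20 s at 9 g. At hypg75s they were 6.03, 7.37 and 7.94 CPM, and at hypg3 6.54, 7.01 and 8.69 CPM. All libraries of these 3 groups lay above all Ctrl libraries. The values then came down, to 5.84, 6.33 and 6.93 CPM at hypg5, 5.06, 5.64 and 6.28 CPM at hypg7 and 4.83, 5.74 and 5.98 CPM at hypg9, each group still clear of Ctrl. The 5 libraries of hypg15 had 3.32, 4.04, 4.07, 4.38 and 4.60 CPM and overlapped with Ctrl. At hypg60 the range was 2.70 to 3.89 CPM against 3.32 to 4.10 CPM in Ctrl60. When the 10 groups are put in order of their means, every neighbouring pair overlapped in its values except hypg9 and Ctrl. The log2 fold change was 0.93 ± 0.08 (SE) at hypg20s, which is 1.90-fold, and 0.79 ± 0.09, 0.76 ± 0.09, 0.62 ± 0.08, 0.45 ± 0.09 and 0.41 ± 0.09 at the next 5 times, all of which passed. It was -0.03 ± 0.11 at hypg15 and -0.14 ± 0.11 at hypg60, and neither passed. With 3 surrogate variables as covariates, the log2 fold changes of CHAC1 from hypg75s to hypg9 were 0.53, 1.04, 0.63, 0.35 and 0.52 and did not pass, where 0, 0, 1, 12 and 52 of all genes tested did.

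ATF4 itself (chromosome 22, 39519695 to 39522683, plus strand), the factor from which the group takes its name, passed at none of the 8 times. Its lowest, median and highest values were 519, 545 and 581 CPM in Ctrl, 533, 585 and 609 CPM at hypg20s and 519, 539 and 606 CPM at hypg3, and every 9 g group overlapped with its control. Its log2 fold changes ran from -0.10 ± 0.05 at hypg15 to 0.07 ± 0.04 at hypg20s. With the GC content of the transcripts corrected for, ATF4 was lower and passed at 5 times, with log2 fold changes from -0.11 at hypg7 to -0.30 at hypg15.

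DDIT3, which encodes the pro-apoptotic factor CHOP, and TRIB3, a pseudokinase that dampens ATF4 and AKT signalling, passed only at 60 min with TMM scaling. DDIT3 had 2.80, 3.12 and 3.69 CPM (lowest, median, highest) in Ctrl60 and 3.71, 3.85 and 3.92 CPM in hypg60, with no overlap between the groups and a log2 fold change of 0.26 ± 0.09. From hypg20s to hypg15 its log2 fold change lay between -0.09 and 0.08, with SEs of 0.09 to 0.13. TRIB3 (chromosome 20, 362835 to 397559, plus strand) had 52.2, 59.9 and 61.7 CPM in Ctrl60 and 42.0, 51.6 and 56.5 CPM in hypg60, overlapping ranges with a log2 fold change of -0.20 ± 0.07. Under GC correction DDIT3 at hypg60 did not pass (0.18), and DESeq2 did not call it either, with a log2 fold change of 0.25. Nor did DDIT3 pass at hypg60 without the filter on low counts (0.24) or with 3 surrogate variables (0.13). Under GC correction TRIB3 passed as lower at 6 times, hypg3 (-0.15), hypg5 (-0.14), hypg7 (-0.16), hypg9 (-0.17), hypg15 (-0.15) and hypg60 (-0.35). At hypg60 TRIB3 did not pass without the filter on low counts (-0.22) or with 3 surrogate variables (-0.17).

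SESN2 and DDIT4 encode sestrin 2 and REDD1, proteins that restrain the growth kinase mTORC1. SESN2 (chromosome 1, 28259518 to 28282491, plus strand) had 17.6, 18.8 and 19.3 CPM (lowest, median, highest) in Ctrl, 20.1, 21.7 and 22.8 CPM at hypg20s and 19.9, 21.8 and 23.8 CPM at hypg75s. The groups did not overlap with Ctrl, and the log2 fold changes of 0.21 ± 0.05 and 0.25 ± 0.05 passed. So did 0.17 ± 0.06 at hypg3 and 0.17 ± 0.06 at hypg15, while the values at hypg5, hypg7, hypg9 and hypg60 lay between 0.02 and 0.11 and did not pass. The hypg15 value did not pass without library 78 (0.16), 79 (0.16) or 80 (0.15). DDIT4 (chromosome 10, 72273919 to 72276036, plus strand) had 39.0, 39.7 and 41.6 CPM in Ctrl and 42.3, 44.8 and 48.1 CPM at hypg3, without overlap and with a log2 fold change of 0.15 ± 0.04. It also passed at hypg75s with 0.09 ± 0.03 and at hypg60 with 0.17 ± 0.06. None of these SESN2 and DDIT4 values passed under GC correction, where they ranged from -0.07 (SESN2, hypg15) to 0.13 (SESN2, hypg20s), and the SESN2 value at hypg15 and the DDIT4 value at hypg75s changed sign. DDIT4 at hypg75s did not pass (0.08) with RLE factors, without the filter on low counts, in 1 model of all groups or in DESeq2. Without that filter, DDIT4 at hypg3 (0.13) and hypg60 (0.16) and SESN2 at hypg3 (0.15) and hypg15 (0.14) did not pass either. With 3 surrogate variables SESN2 did not pass at hypg20s (0.19), hypg75s (0.02), hypg3 (0.07) or hypg15 (0.01). Nor did DDIT4 with them at hypg75s (-0.004), hypg3 (0.30) or hypg60 (0.195).

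HSPA5 passed as lower at 5 of the 8 times and XBP1 at 3. HSPA5 (chromosome 9, 125234853 to 125241382, minus strand), also known as BiP, had 344, 374 and 397 CPM (lowest, median, highest) in Ctrl and 319, 323 and 334 CPM at hypg20s. It had 291, 307 and 333 CPM at hypg75s and 292, 308 and 330.4 CPM at hypg3, and in all 3 groups every library was below every Ctrl library. The log2 fold changes were -0.20 ± 0.03, -0.25 ± 0.04 and -0.29 ± 0.04, and -0.19 ± 0.05 at hypg7 and -0.15 ± 0.04 at hypg9 passed as well. At hypg5, hypg15 and hypg60 the values of -0.15, -0.11 and -0.08 did not pass. XBP1 (chromosome 22, 28794555 to 28800597, minus strand) had 112, 124 and 133 CPM in Ctrl60 and 85.9, 103.6 and 110.3 CPM in hypg60, where the groups did not overlap and the log2 fold change was -0.28 ± 0.06. It passed with overlapping groups at hypg75s (-0.16 ± 0.04) and hypg3 (-0.13 ± 0.05). Under GC correction the HSPA5 values at these 5 times still passed (-0.16 to -0.23), whereas XBP1 passed only at hypg15, where it was higher (0.43). With 3 surrogate variables HSPA5 did not pass at hypg75s (-0.31), hypg3 (-0.22), hypg7 (-0.18) or hypg9 (-0.10). XBP1 then did not pass at hypg75s (-0.19), hypg3 (-0.01) or hypg60 (-0.21), and passed as lower at hypg20s (-0.14). The hypg3 value of XBP1 also did not pass with RLE factors (-0.10), in 1 model of all groups (-0.11) or in DESeq2 (-0.10).

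PPP1R15A (chromosome 19, 48872421 to 48876058, plus strand) encodes GADD34, which brings a phosphatase to eIF2 and so restarts translation. It had 35.2, 36.6 and 38.7 CPM (lowest, median, highest) in Ctrl, 28.9, 32.1 and 33.6 CPM at hypg20s and 29.2, 30.1 and 33.8 CPM at hypg75s. These groups, hypg5, hypg7 and hypg9 did not overlap with Ctrl. At hypg15 the 5 values of 34.4, 35.0, 35.8, 37.4 and 39.3 CPM spanned the range of Ctrl, while under GC correction PPP1R15A passed as lower there (-0.25, against -0.02 uncorrected). In hypg60 it had 24.8, 28.5 and 29.3 CPM against 33.4, 36.8 and 39.4 CPM in Ctrl60, again without overlap. Its log2 fold change was -0.38 ± 0.06 at hypg60, the lowest of any member at 9 g, and between -0.26 and -0.18 from hypg20s to hypg9, where all but the -0.21 ± 0.06 of hypg5 passed. The hypg5 value passed with RLE factors, by total counts only, under GC correction, in 1 model of all groups and in DESeq2. With 3 surrogate variables PPP1R15A did not pass at hypg75s (-0.02), hypg3 (-0.08), hypg7 (-0.10), hypg9 (-0.22) or hypg60 (-0.41).

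ASNS makes asparagine from aspartate and is a classical ATF4 target. Its Ctrl libraries ranged from 0.150 to 0.354 CPM and those of hypg75s from 0.145 to 0.582 CPM. The log2 fold change of 0.84 ± 0.30 at hypg75s passed, with overlapping groups, and did not pass by total counts only, without the filter on low counts or in 1 model of all groups. At hypg20s, hypg3, hypg5, hypg7, hypg9 and hypg60 the value lay between 0.37 and 0.72 with SEs of 0.24 to 0.36, and none passed. ASNS was too low to be tested at hypg15.

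Some contrasts were not named by the rule, although they reuse the same libraries. Between the 2 controls, Ctrl60 and Ctrl, 0 of 9 members tested passed in edgeR (beside 0.00621% and 0.00621% of all genes tested) and 0 in DESeq2, and at an unadjusted p under 0.05 it was 1, CHAC1, in edgeR. Without overlap were 0 higher and 0 lower (0.155% and 0.211% of all genes). Between hypg9 and hypg75s, CHAC1 fell by 0.39 ± 0.09 on the log2 scale (adjusted p = 0.022, edgeR) and SESN2 fell by 0.22 ± 0.06 (adjusted p = 0.041, edgeR), 2 lower members beside 1.76% and 3.24% of all genes tested that passed as higher and lower. Without overlap were 0 higher and 1 lower (1.2% and 2.03% of all genes), and the lower 1 was CHAC1. Between hypg15 and hypg3, CHAC1 was the 1 member that passed (beside 1.7% and 0.842% of all genes tested), at 0.565 times its hypg3 level (log2 fold change -0.82 ± 0.11, adjusted p = 0.001, edgeR), with all 5 hypg15 libraries below all 6 of hypg3. Without overlap were 0 higher and 1 lower (2.65% and 1.33% of all genes). By total counts only, SESN2 did not pass between hypg9 and hypg75s, and HSPA5 passed in both contrasts, higher by 0.13 and 0.14 on the log2 scale.

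**Figure D2:**
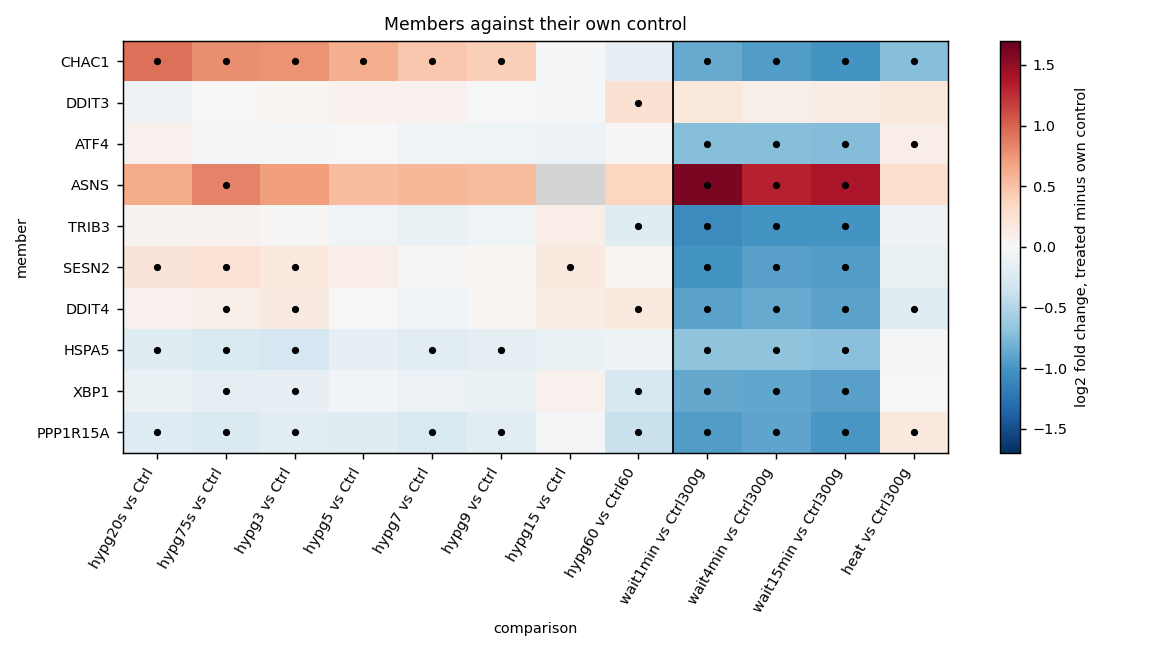
Log2 fold change of each member (rows) in the 12 comparisons with the own control (columns, 9 g left of the line), where red is higher and blue lower than the control, dots mark an adjusted p under 0.05 and grey was not tested. CHAC1 is red from hypg20s to hypg9 and blue after 300 g, where ASNS is the member with the strongest red.

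After 5 min at 300 g, 8 of the 10 members were lower than in the unspun cells at each of the 3 waiting times and 1, ASNS, was higher. All these values passed, beside 41.4% and 40.1% of all genes tested that passed as higher and lower at wait1min, 41.7% and 40.6% of all genes tested at wait4min and 41.8% and 40.5% of all genes tested at wait15min. Without overlap with Ctrl300g were 2 higher and 8 lower (39.3% and 37.4% of all genes) at wait1min. At wait4min these were 1 higher and 8 lower (39.5% and 37.7% of all genes), and at wait15min 1 higher and 8 lower (39.5% and 37.9% of all genes). The median log2 fold change of the members was -0.86, -0.87 and -0.92, beside a median of 0.01 over all genes at each time. Scaling by total counts only instead of TMM moved the median of all genes up by 0.24, 0.26 and 0.26, so that the values below are relative to that choice. The summed level of the T cell markers also went from 3718 to 3806 CPM in Ctrl300g to 2360 to 2528 CPM after 300 g, with 6 of the 8 markers lower and 1 higher at each time, and their part in the results was not tested. The share of mitochondrial counts was 2.07% ± 0.04 in Ctrl300g (SD, n = 4), 2.30% to 2.43% after 300 g and 2.39% ± 0.06 in heat. In these bulk samples, fewer cells of a kind and less RNA per cell cannot be told apart.

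**Figure D3:**
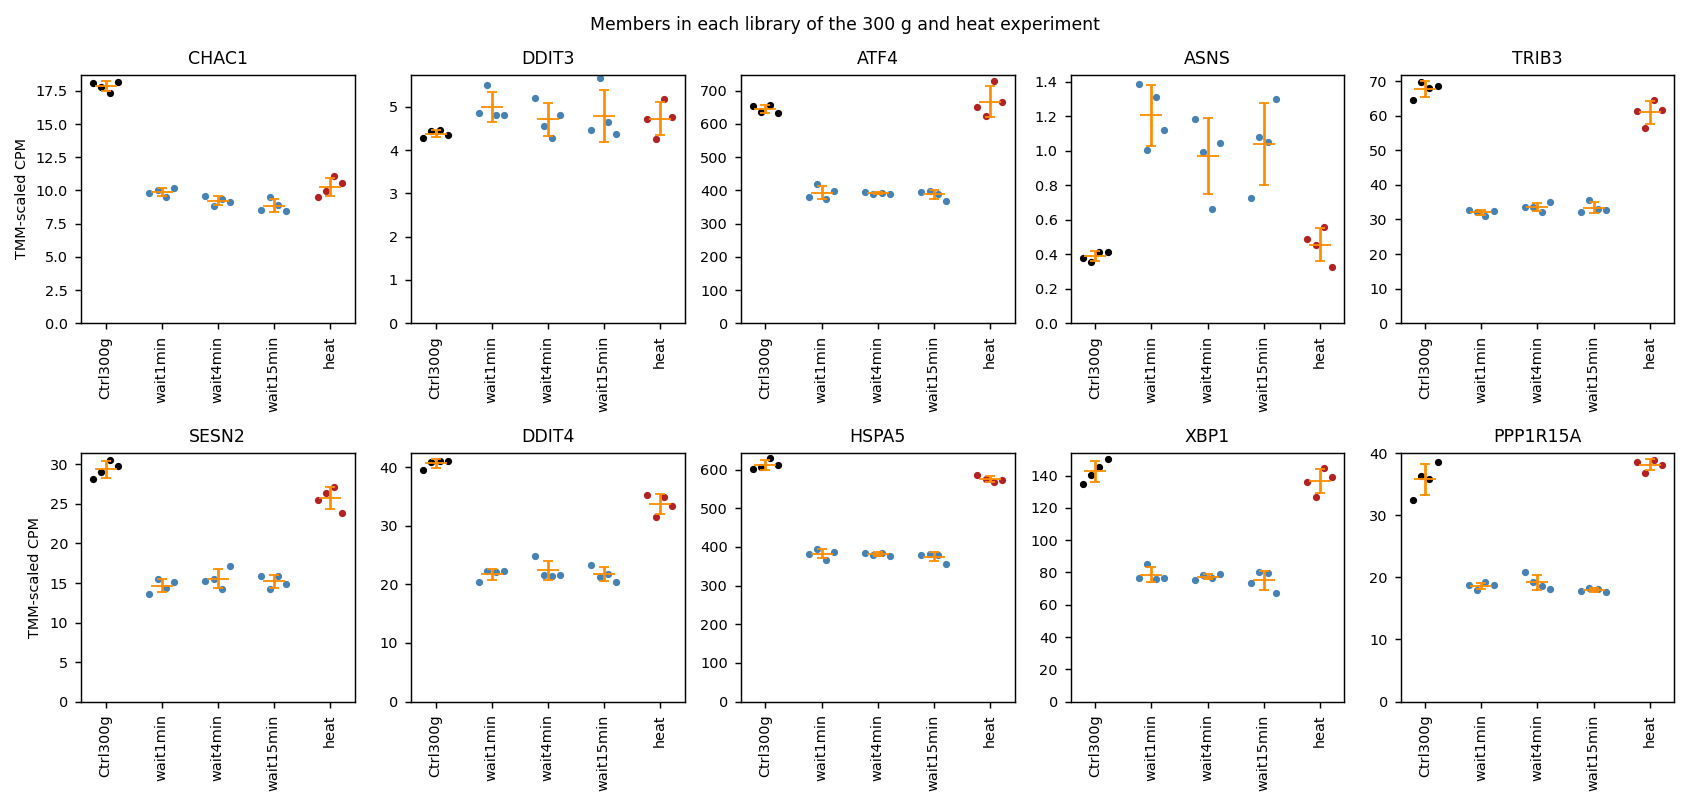
Level of each member in every library of the second experiment, in counts-per-million scaled by TMM factors over its 20 libraries (linear axes from 0). Points are libraries (black: Ctrl300g, blue: after 300 g, red: heat), and orange marks the mean and SD of 4 libraries; the 3 waiting times lie close together for every member.

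CHAC1 was high in the unspun cells of this experiment, with 17.3, 17.8, 18.1 and 18.2 CPM in Ctrl300g. It had 9.51, 9.84, 10.0 and 10.2 CPM at wait1min, 8.85, 9.14, 9.34 and 9.60 CPM at wait4min and 8.46, 8.51, 8.91 and 9.50 CPM at wait15min. No centrifuged library came near the controls, and the log2 fold changes were -0.86 ± 0.06, -0.95 ± 0.06 and -1.01 ± 0.06. The direction was thus opposite to that of the first 9 min at 9 g, where control, centrifuge and waiting time all differ.

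ATF4 had 633, 634, 652 and 656 CPM in Ctrl300g and 373, 381, 398 and 418 CPM at wait1min, a log2 fold change of -0.72 ± 0.04. TRIB3 had 64.4, 67.9, 68.6 and 69.7 CPM in Ctrl300g and 31.0, 32.1, 32.4 and 32.6 CPM at wait1min, and its log2 fold change of -1.09 ± 0.05 was the lowest of the members at that time without GC correction. SESN2 had 28.1, 29.1, 29.8 and 30.6 CPM in Ctrl300g and 13.6, 14.4, 15.1 and 15.5 CPM at wait1min (-1.01 ± 0.06). All 3 genes fell, with no overlap between the groups. DDIT4 went from 39.5, 40.8, 41.1 and 41.1 CPM to 20.3, 22.0, 22.2 and 22.3 CPM (-0.91 ± 0.05), and PPP1R15A from 32.4, 35.9, 36.2 and 38.5 CPM to 17.9, 18.7, 18.8 and 19.2 CPM (-0.95 ± 0.06). The chaperone HSPA5 went from 600.5, 606, 612 and 629.9 CPM to 367, 381, 388 and 394 CPM (-0.69 ± 0.04). XBP1 went from 135, 140.3, 146 and 150.0 CPM to 75.7, 76.5, 76.8 and 85.5 CPM (-0.87 ± 0.05). For these 4 genes too, every centrifuged library was below every control library.

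DDIT3 and ASNS did not share this fall. DDIT3 had 4.29, 4.34, 4.44 and 4.47 CPM in Ctrl300g and 4.80, 4.81, 4.86 and 5.51 CPM at wait1min, where the log2 fold change was 0.18 ± 0.09, and it passed at no waiting time, although at wait1min the groups did not overlap. By total counts only, DDIT3 was higher and passed at all 3 (0.36 to 0.43), and under GC correction at wait1min (0.25). ASNS had 0.353, 0.379, 0.414 and 0.415 CPM in Ctrl300g, 1.00, 1.12, 1.31 and 1.39 CPM at wait1min, 0.665, 0.991, 1.04 and 1.18 CPM at wait4min and 0.727, 1.05, 1.08 and 1.30 CPM at wait15min. Its log2 fold changes were 1.60 ± 0.21, 1.31 ± 0.25 and 1.39 ± 0.24, with no overlap between groups, on the part of the gene that is not shared with ENSG00000284707. Between wait15min and wait1min, 0 of 10 members passed in edgeR (beside 0.0115% and 0.138% of all genes tested) and 0 in DESeq2. Without overlap were 0 higher and 1 lower (2.76% and 4.33% of all genes). CHAC1 had an unadjusted p under 0.05 there in edgeR (log2 fold change -0.15 ± 0.07).

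In cells heated to 42 °C the members moved less. Of the 8 T cell markers 1 was higher and 4 were lower than in Ctrl300g, their sum was 3375 to 3706 CPM in heat against 3718 to 3806 CPM, and their part in the results was not tested. Compared with Ctrl300g, 2 were higher and 2 lower, beside 10.6% and 10.2% of all genes tested, and without overlap were 0 higher and 4 lower (7.66% and 20.4% of all genes). The 4 lower ones without overlap were CHAC1, DDIT4, SESN2 and HSPA5 on the CPM scale, whose factors come from the whole experiment, while the fold changes of SESN2 (-0.12 ± 0.06) and HSPA5 (-0.02 ± 0.03) rest on factors of the 2 groups and did not pass. CHAC1 had 9.48, 9.97, 10.6 and 11.1 CPM, below every Ctrl300g library, with a log2 fold change of -0.73 ± 0.06. DDIT4 had 31.4, 33.4, 34.8 and 35.3 CPM, also below every control library (-0.20 ± 0.05). ATF4 (0.12 ± 0.04) and PPP1R15A (0.16 ± 0.05) passed as higher with groups that overlapped, and neither passed under GC correction, in 1 model of all groups or without some of the single libraries. In 1 model of all groups, TRIB3, SESN2 and HSPA5 passed as lower, so that 0 members were higher and 5 lower, beside 7.85% and 21.6% of all genes tested in that model. Under GC correction TRIB3 (-0.17) and SESN2 (-0.21) passed as lower, so that 0 were higher and 4 lower, beside 9.23% and 21.1% of all genes. The median of all genes lay 0.07 lower on the log2 scale in the model of all groups. As a check of the heating, the chaperone gene HSPA1B rose by 0.63 ± 0.06 and DNAJB1 by 0.17 ± 0.03 on the log2 scale. HSPA1A, a near-identical copy of HSPA1B, had 0.45 ± 0.28 and did not pass, and HSPH1 had -0.32 ± 0.06 and passed as lower. At hypg60, in another experiment and against Ctrl60, HSPA1B rose by 2.69 ± 0.08, HSPA1A by 2.61 ± 0.28 and DNAJB1 by 1.46 ± 0.05, while HSPH1 had 0.28 ± 0.13 and did not pass.

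The 2 stresses differed for 8 members when heat was compared directly with wait1min, 7 of them higher in heat and 1 lower, beside 39.1% and 42.0% of all genes tested, and without overlap were 7 higher and 1 lower (37.1% and 39.0% of all genes). The contrast compares the libraries of 2 contrasts described above. PPP1R15A was 2.02-fold higher in heat, with 36.9, 38.09, 38.6 and 38.8 CPM (log2 fold change 1.02 ± 0.05, adjusted p = 4.5e-13, edgeR). TRIB3 was 1.88-fold higher (0.91 ± 0.05, adjusted p = 1.7e-12, edgeR). SESN2, XBP1, ATF4, DDIT4 and HSPA5 were higher by 0.80, 0.78, 0.75, 0.62 and 0.57 on the log2 scale, and ASNS was lower (-1.40 ± 0.23, adjusted p = 1.4e-05, edgeR). CHAC1 and DDIT3 were the 2 members that did not pass. DDIT3 had a log2 difference of -0.10 ± 0.10 and passed by total counts only (-0.22). CHAC1 had 10.3 ± 0.699 CPM in heat and 9.89 ± 0.290 CPM at wait1min (SD, n = 4), a log2 difference of 0.04 ± 0.07, which became -0.46 and passed under GC correction.

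Across all genes, fold changes moved with the GC content of the longest transcript. Spearman's rho across genes, which are not independent replicates, was 0.59, 0.68 and 0.67 at hypg20s, hypg3 and hypg15, 0.10 at hypg7 and -0.69 at wait1min. The members ran from 41.5% GC (XBP1) to 62.6% (CHAC1), around a median of 48.8% over 18454 genes tested. With a smooth curve against GC content removed from each library, CHAC1 at 9 g was 0.84 at hypg20s, 0.58 at hypg3 and 0.31 at hypg9, and -0.31 at hypg15 and -0.30 at hypg60, where it then passed as lower. At wait1min CHAC1 was -0.37 and ATF4 -0.34 against -0.86 and -0.72 uncorrected, and XBP1, at the low end of GC content, was -1.80 against -0.87. HSPA5 was -0.91 against -0.69 and TRIB3 -0.61 against -1.09, so that XBP1 and HSPA5 were then the lowest. SESN2 was -0.56, PPP1R15A -0.51 and DDIT4 -0.49, against -1.01, -0.95 and -0.91. All 8 members that fell after 300 g still passed as lower. Beyond this correction, the part of GC content in the results was not tested.

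**Figure D4:**
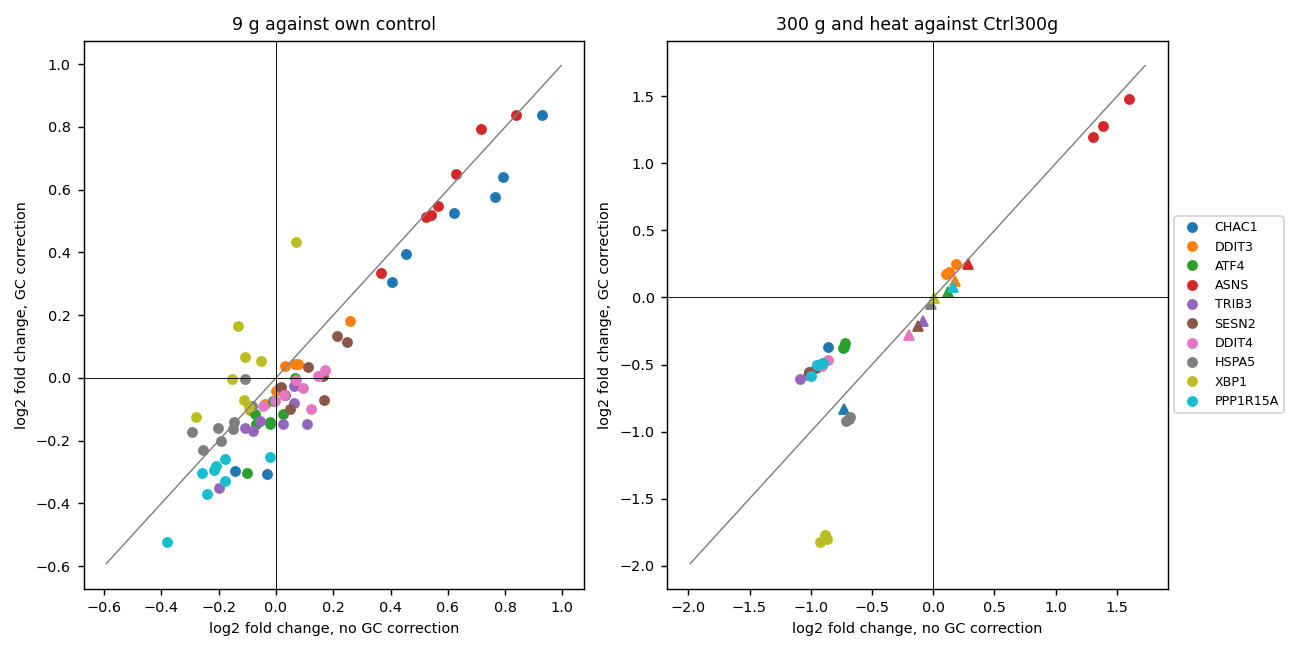
Log2 fold change of the members against their own control without (x axis) and with (y axis) correction for GC content, at 9 g (left) and after 300 g (right, circles) or heat (right, triangles), 1 colour a gene; the line marks equal values. XBP1 lies far below the line after 300 g, and CHAC1, TRIB3, SESN2, DDIT4, ATF4 and PPP1R15A lie above it.

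The other genes of the pathway were read from 6 lists, which do not contain the members. Their counts stand beside shares of all genes tested that passed as higher and lower, which were 6.66% and 8.58% at hypg20s, 16.8% and 14.4% at hypg75s, 16.9% and 24.4% at hypg3, 25.4% and 27.9% at hypg15 and 41.4% and 40.1% at wait1min. At hypg5, where these shares were 4.33% and 1.69%, 4 of the lists had 0 genes that passed, and the other 2 had 1 or 2. Among 12 aminoacyl-tRNA synthetases, which charge tRNAs and are ATF4 targets, 7 were lower and 0 higher at hypg75s, 7 lower and 0 higher at hypg3, and 0 to 5 lower and 0 higher at the other times at 9 g. WARS1 passed as lower in 8 of the 12 comparisons with the own control, with log2 fold changes of -0.19 ± 0.06 at hypg7 and -0.82 ± 0.04 at wait1min. LARS1 was lower at hypg3 (-0.46 ± 0.05) and higher at wait1min (0.39 ± 0.04). After 300 g, 4 synthetases were higher and 8 lower at each waiting time.

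Of 18 genes of amino acid synthesis and transport, 4 were higher and 4 lower at hypg3, 6 higher and 3 lower at hypg15, and 2 higher and 14 lower at wait1min (median log2 fold change -0.69). The transporter of basic amino acids SLC7A1 passed as higher at 7 of the 8 times at 9 g, by 0.18 ± 0.03 at hypg75s and 0.27 ± 0.05 at hypg60, and was lower at wait1min (-0.68 ± 0.04). PSAT1, an enzyme of serine synthesis, was lower at hypg15 (-0.34 ± 0.06) and at wait1min (-0.38 ± 0.04). Among 13 of 16 regulators and stress genes that could be tested, 4 were higher and 1 lower at hypg20s and at hypg75s, 1 higher and 4 lower at hypg3, 3 higher and 4 lower at hypg15, 0 either way at the other times at 9 g, and 5 higher and 7 lower at wait1min. EIF4EBP1, a repressor of translation, had -1.08 ± 0.06 at wait1min, and VLDLR, a lipoprotein receptor, -0.23 ± 0.06 at hypg20s and 0.19 ± 0.05 at wait1min.

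Of 15 ER chaperones and folding enzymes, 1 was higher and 8 were lower at hypg3, and 4 higher and 10 lower at wait1min (median -0.62), while 0 passed at hypg5 and at hypg60, the latter beside 17.1% and 13.0% of all genes tested. MANF, a secreted protein of the ER stress response, was lower at hypg7 (-0.18 ± 0.05) and at wait1min (-0.58 ± 0.04). P4HB, a protein disulfide isomerase, was higher at hypg15 (0.18 ± 0.05) and lower at wait1min (-0.88 ± 0.04). Of 15 genes of ER-associated degradation and XBP1 targets, 9 were lower and 1 was higher both at hypg3 and at hypg15, and 6 were higher and 7 lower at wait1min. SEC61B, a subunit of the ER translocon, passed as lower in 11 of the 12 comparisons, with -0.73 ± 0.07 at hypg60, and the ubiquitin ligase SYVN1 was higher at hypg3 (0.21 ± 0.05) and lower at wait1min (-0.46 ± 0.04). Among 21 of 22 stress sensors and subunits of eIF2 and eIF2B that were tested, 2 were higher and 8 lower at hypg3. ERN1, the IRE1 sensor that splices XBP1 mRNA, passed as higher in 6 comparisons, all at 9 g (0.27 ± 0.07 at hypg5), and EIF2B1 was lower at hypg3 (-0.12 ± 0.04). In heat, the 6 lists had 0 to 2 genes higher and 1 to 4 lower, beside 10.6% and 10.2% of all genes tested.

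**Figure D5:**
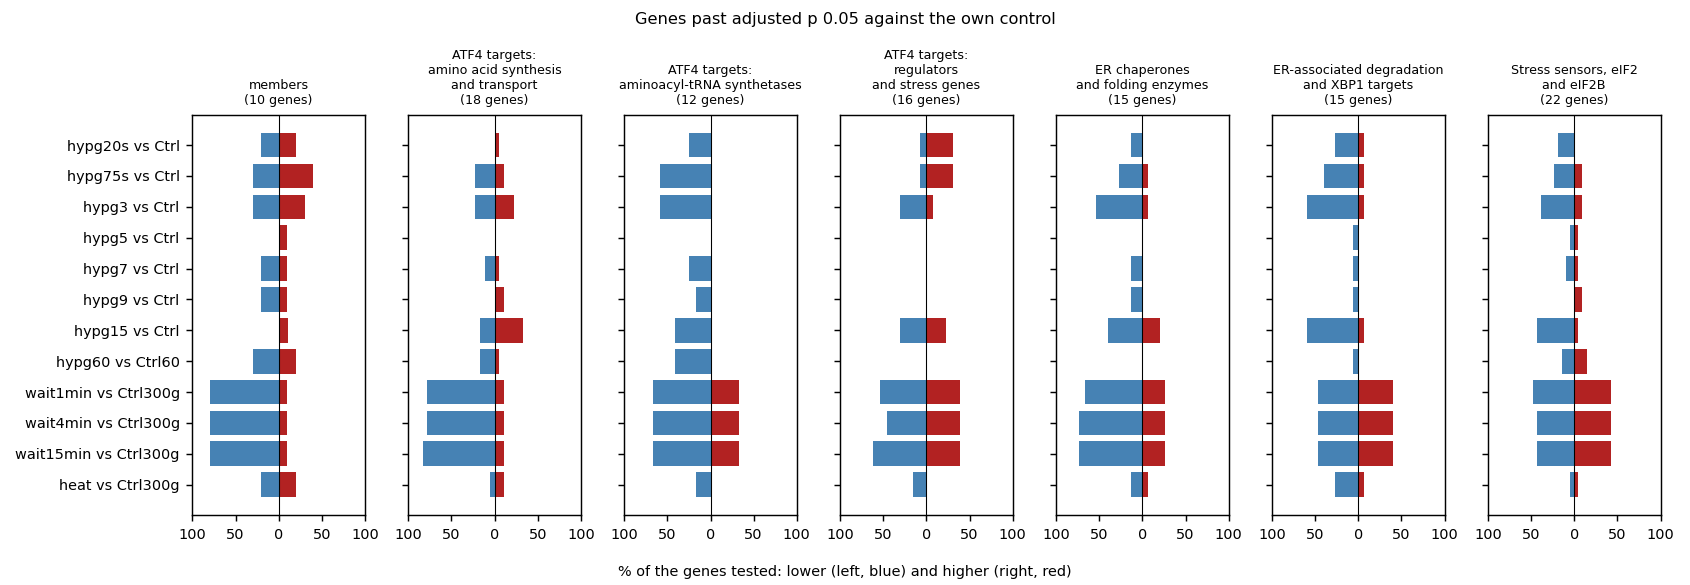
Share of the tested genes of the members and of each of the 6 pathway lists that passed an adjusted p of 0.05 as lower (blue, left) or higher (red, right) than the own control, in percent, for the 12 comparisons. Each panel names its list and its number of genes; most lists have their longest bars after 300 g, with the lower bars of ER-associated degradation longest at hypg3 and hypg15, and the aminoacyl-tRNA synthetases have no red bar at 9 g.

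Likeness was measured by Pearson's r over the 15 group means of log2(CPM + 0.5), each centred on the mean of its experiment, among the 8986 genes that averaged 10 CPM or more. Groups of 1 experiment share a control and a range of libraries, and r over so few points is a description. NFIL3 (0.93) was among the genes most like CHAC1, those most like ATF4 were RPS19BP1 (0.99), ADIPOR1 (0.99) and CHI3L2 (0.99), and those most like PPP1R15A were UBALD2 (0.99), DUSP2 (0.99) and the member XBP1 (0.99). DDIT3 had no gene as close, with OGT (0.81), ZNF589 (0.78) and ZBTB40 (0.75) at the top. Between members, r was 0.97 for TRIB3 with SESN2 and -0.96 for ASNS with XBP1, and CHAC1 had its highest value, 0.62, with SESN2.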

How the data were processed

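The authors deposited raw counts per gene for 80 libraries, made from stranded paired reads with featureCounts (2.0.3 in the header, 2.0.1 in the processing notes) on the Ensembl 104 annotation of GRCh38. The notes also name Trim Galore 0.6.5, STAR 2.7.3a and DESeq2 1.28.1. The deposited length column gives exon bases per gene, another unit, as featureCounts wrote it. Library 75 and 1 gene with a broken record were left out, and 60462 genes had a symbol.

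Each comparison was fitted on its 2 groups with the quasi-likelihood test of edgeR 4.0.16 (TMM, filterByExpr with a minimum count of 10) and Benjamini-Hochberg adjustment over all genes tested, at 0.05. SEs were derived from the F statistic. Fold changes rest on scaling factors of 2 groups and CPM on factors of the whole experiment, which can differ slightly. Alternatives were RLE factors, total counts only, no filter, 1 model of all groups, DESeq2 1.42.0, a lowess curve (span 0.3) on the GC content of the longest GENCODE v29 transcript, 3 surrogate variables (sva 3.50.0, 9 g only), library 75 kept in, and single libraries left out (hypg15, 300 g and heat). The code was tested on simulated data. Replicate pairs differed by at least 1.43 times counting noise (chi-square per gene, 175 pairs). For the pairs of library 44 of hypg60 this was 38.85 to 142.6. That library held the lowest hypg60 values of TRIB3 (42.0 CPM), XBP1 (85.9 CPM) and PPP1R15A (24.8 CPM), and no fit without it was run. Members and lists were chosen with earlier results of these data known. Named beside the members were, for each list and direction, the gene that passed in the most of 12 comparisons, 4 heat chaperones, and the 3 genes most like each of 4 members, some of which are not reported here.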

Additional observations from a re-analysis of the deposited data

Results flagged for a closer look

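Over 150 sets of library values, 1 for each member and group, 10 held a library whose gap to the nearest value exceeded Dixon's critical value, where chance flags about 1 in 20. CHAC1 had 8.69 CPM in library 74 of hypg3, the others ending at 7.22 CPM. PPP1R15A had 26.7 CPM in library 25 of hypg5 and 24.8 CPM in library 44 of hypg60, with the nearest at 31.8 and 27.9 CPM. XBP1 had 100.3 CPM in library 16 of hypg20s (nearest 114 CPM), and 85.5 CPM in library 54 of wait1min (nearest 76.8 CPM). DDIT3 had 5.51 CPM in the same library 54, with the nearest at 4.86 CPM. DDIT4 had 37.7 CPM in library 9 of Ctrl60, 20.3 CPM in library 53 of wait1min and 24.8 CPM in library 57 of wait4min, with the nearest at 41.2, 22.0 and 21.6 CPM. HSPA5 had 357 CPM in library 64 of wait15min (nearest 379 CPM).

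Effects also differed between treatments or times in direct edgeR tests, for 11 values. Between heat and wait1min, both set against Ctrl300g, where 39.1% and 42.0% of all genes tested passed as higher and lower, the log2 difference was 0.75 for ATF4, -1.40 for ASNS, 0.91 for TRIB3, 0.80 for SESN2, 0.62 for DDIT4, 0.57 for HSPA5, 0.78 for XBP1 and 1.02 for PPP1R15A. At 9 g, CHAC1 differed by -0.82 between hypg15 and hypg3 and by -0.39 between hypg9 and hypg75s, and SESN2 by -0.22 between hypg9 and hypg75s. In these contrasts 1.7% and 0.842% of all genes tested (hypg15 against hypg3) and 1.76% and 3.24% of all genes tested (hypg9 against hypg75s) passed as higher and lower.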

How the results depend on the processing

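Among 10 members, the number that passed kept within 1.5 times its value in all alternatives run for hypg20s, for the 3 waiting times after 300 g, for heat against wait1min, and for the 2 contrasts with 0 members. With 3 surrogate variables (edgeR) it fell to 0 at hypg75s (from 7), hypg3 (from 6), hypg5 (from 1), hypg7 (from 3), hypg9 (from 3), hypg15 (from 1), hypg60 (from 5) and in hypg9 against hypg75s (from 2), where 1, 3, 0, 1, 0, 2, 2 and 3 members had an unadjusted p under 0.05 and DESeq2 without these variables had called between 1 and 5, with 7.40% (hypg9 against hypg75s) to 52.6% (hypg15) of all genes. It rose to 2 in hypg15 against hypg3 (from 1, with 5.52% of all genes). Of all genes tested, 0, 0, 1, 12, 52, 57, 83 and 561 passed in the 8 contrasts with 0 members, in the same order. The cause was not tested. At hypg5 it was 2 with RLE factors and in DESeq2 (5.93% and 8.20% of all genes tested passed), and 3 by total counts only, under GC correction and in 1 model of all groups (8.53%, 12.6% and 7.73%). Under GC correction it was 5 at hypg7, hypg9 and hypg15 and 3 at hypg60 (20.8%, 29.8%, 6045 of 15875 and 42.5% of all genes). By total counts only it was 3 at hypg15 and 2 in hypg15 against hypg3 (52.4% and 2.68%), and in 1 model of all groups likewise 3 and 2 (50.8% and 5.88%). Without the filter it was 0 at hypg15, 2 at hypg60 and 1 in hypg9 against hypg75s (23.5%, 13.8% and 2.00%), with 2 members at an unadjusted p under 0.05 at hypg15. Leaving out single libraries gave 0 to 2 at hypg15 against Ctrl and 2 to 3 (from 4) in heat. At hypg15 SESN2 did not pass without library 78, 79 or 80 (adjusted p 0.054, 0.052 and 0.051), and TRIB3 passed without library 77 and DDIT4 without library 79. In heat, PPP1R15A did not pass without any 1 of 7 of the 8 libraries, nor ATF4 without library 50, 51 or 52. With library 75, in which HSPA5 has 0 counts, kept in, all 18 member values kept their side of the threshold, and 1, HSPA5 in hypg15 against hypg3, changed sign (-0.10 from 0.16). HSPA5 at hypg15 went from -0.11 to -0.37.

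Among values that passed in at least 1 of both fits, signs changed under GC correction for DDIT4 at hypg75s (-0.033), TRIB3 and XBP1 at hypg3 (-0.15 and 0.17), TRIB3 and SESN2 at hypg15 (-0.15 and -0.071) and CHAC1 in heat against wait1min (-0.46), and with 3 surrogate variables for DDIT4 at hypg75s (-0.004). Another 18 of 168 and 20 of 108 values changed sign under these settings without passing in either fit. By total counts only, HSPA5 passed as lower at hypg5, ATF4 and HSPA5 as lower at hypg15, and HSPA5 as higher in hypg9 against hypg75s and hypg15 against hypg3. No paired analysis was possible because no library number occurs in 2 groups. Depth limited ASNS, with 3 to 39 counts a library, most.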
